A study of Homo sapiens with 5 samples.

Results

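The genes described here are 40 components of the DNA replication machinery, chosen by symbol from general knowledge and with earlier results of these data known. The study had reported a DNA replication gene set as lower after NSD2 knockdown, so the shared direction below is not an independent finding. All 40 genes were found among the 26364 genes listed in the expression table. They comprise 9 genes of origin licensing, 6 of the GINS complex and the CDC7 kinase, 10 of the replicative polymerases, 11 of the clamp, its loader, RPA, the flap nuclease and the ligase, and 4 of fork protection. The MCM helicase genes were left out of this set and serve below as a comparison. Expression was measured by poly(A) mRNA-seq in growing IMR-90 cells, a line of human fetal lung fibroblasts, 24 h after siRNA transfection. The Ctr-KD cells received a control siRNA (libraries Ctr-1 and Ctr-2), and the NSD2-KD cells received 1 of 3 siRNAs against NSD2, a histone H3K36 methyltransferase (libraries NSD2-1, NSD2-2 and NSD2-3). The comparison asks what loss of NSD2 does to gene expression in proliferating fibroblasts. Each NSD2 siRNA was used in a single library, so an effect of one siRNA and a feature of one library cannot be told apart.

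Replication starts where the origin recognition complex (ORC) marks the DNA and where CDC6 and CDT1 load the MCM helicase, while geminin holds CDT1 in check. The CDC7 kinase and the GINS complex then turn the loaded helicase into a moving fork, at which polymerase alpha-primase lays primers, polymerases epsilon and delta copy the strands, and the sliding clamp PCNA keeps the polymerases on the DNA. In dividing cells many of these genes are transcribed at entry into S phase under the control of E2F factors, whereas several ORC subunits are known for steady levels through the cycle.

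The libraries held between 2473691 and 2845063 reads on genes, and 3 reads, below which a gene was treated as not distinguishable from 0, corresponded to between 2.76 and 3.28 normalized counts. The targeted gene NSD2 (under the symbol WHSC1 in the table) had normalized counts of 463 and 443 in Ctr-1 and Ctr-2 and of 90.2, 81.9 and 87.9 with NSD2-1, NSD2-2 and NSD2-3. The log2 difference was -2.37 (SE 0.12, adjusted p = 0.000464 from limma with Benjamini-Hochberg adjustment), so the target mRNA was depleted to a like extent in all 3 libraries. All 9 fibroblast markers were well expressed, and COL1A1 ranged from 91004 to 106318 normalized counts. Of 6 epithelial markers only CLDN4 passed the filter on low counts, at 8.57 to 24.0 normalized counts, and the summed level of the list was 12.3 to 12.4 in Ctr-KD and 14.6 to 27.3 in NSD2-KD libraries. The summed level of 4 endothelial markers was at most 6.55, with PECAM1 and CDH5 at 0 in every library. Of the leukocyte markers, PTPRC and CD3E were at 0 in every library and CD14 reached at most 2.18 normalized counts.

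Most of the replication genes were lower in NSD2-KD cells, by a little under 1 unit on the log2 scale. A gene was tested when its mean normalized count over the 5 libraries was at least 10, and 38 of the 40 genes passed. Of these, 36 were lower in NSD2-KD than in Ctr-KD cells and 2 (ORC3 and ORC4) were higher, with a median log2 difference of -0.84 and a range from -1.65 to 0.19, against a median of -0.0089 over all 11313 tested genes. The directions of ORC2, ORC3, POLD2 and TIPIN turned under some of the alternative settings. All NSD2-KD libraries lay below both Ctr-KD libraries for 31 of the 38 genes, against 13.9% of all tested genes, and above both for 0 of them, against 13.8% of all tested genes. An unadjusted p under 0.05 was reached by 26 genes in the lower direction, against 4.99% of all tested genes, and by 0 genes in the higher direction, against 4.19%. With Ctr-1 or Ctr-2 left out, this count of 26 was lower. The shares of all tested genes were not computed for those runs, so the shares given here are not their background.

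No single member passed the adjustment over all tested genes in the main test. With limma and Benjamini-Hochberg adjustment, 0 of the 38 genes had an adjusted p under 0.05, and 0.053% of all tested genes were called lower at that threshold. Count tests on the recovered reads called a few of them. DESeq2 called 2 genes lower, CLSPN and RFC3, against 0.389% of all tested genes, and edgeR's quasi-likelihood test called 1, RFC3, against 0.0972%. ORC1, GINS3 and CDC7 passed the filter only through their Ctr-KD levels, since their NSD2-KD means were 8.45, 9.06 and 9.73 normalized counts. With no filter on low counts, all 40 genes entered the fit, 32 of the 40 were below both Ctr-KD libraries in every NSD2-KD library, 27 had an unadjusted p under 0.05 in the lower direction, and the median log2 difference was -0.87. The shares of all genes were not computed without the filter, so these counts have no background to be read against.

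**Figure D1:**
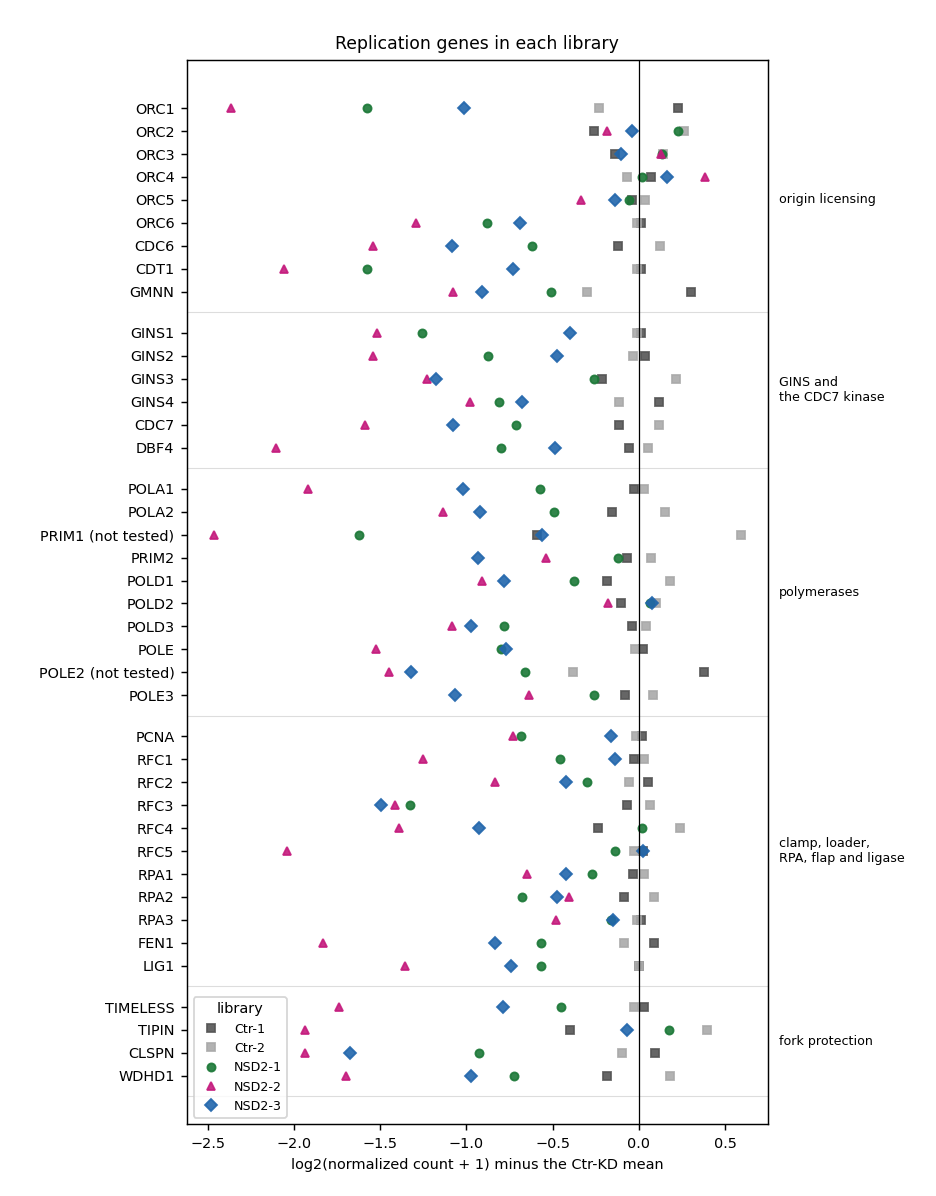
The horizontal axis shows log2(normalized count + 1) in each library minus the mean of the Ctr-KD libraries, and each row is 1 of the 40 genes, grouped by role. Squares are Ctr-KD libraries and the coloured symbols the 3 NSD2-KD libraries; most coloured symbols lie to the left of the squares, while ORC2, ORC3, ORC4 and POLD2 scatter around 0 and ORC5 lies just left of it.

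Because most of these genes were lower in the same libraries, their promoters were searched for the letters that E2F factors are known to bind. The RefSeq promoter table (GRCh38.p14, 250 bases before to 50 after the start, both strands read) held windows for 36 of the 40 genes, with none for GINS4, POLD3, RPA2 and RPA3. An E2F-type match was taken as TTTCCCGC, TTTCGCGC, TTTGCCGC or TTTGGCGC, or the reverse complement of one of them. Such a match was present in 17 of 36 genes (47.2%), in 7 of 22 other DNA replication genes with a window (31.8%) and in 1090 of 27305 genes in the whole table (3.99%). Among the tested genes a window was matched for only 8645 of 11313, and 588 of those (6.80%) held a match. The shares with CCAAT were closer, with 19 of 36 genes (52.8%) against 39.7% of all genes and 43.4% of the matched tested genes, and TTTGAA, the core letters of the cell cycle homology region (CHR), was found in 2 of 36 (5.56%) against 18.2% of all genes and 13.7% of the matched tested genes. By role, the E2F-type letters were found in 4 of 5 genes of GINS and the CDC7 kinase, 4 of 9 of origin licensing, 4 of 9 polymerase genes, 3 of 9 of the clamp group and 2 of 4 of fork protection. A match is a description of the letters and does not show that a factor binds there.

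The 80 bases before the start are printed for RFC3, the only gene called by both count tests, for CDT1, POLE, GINS2 and POLA2 as examples from licensing, the polymerases and GINS that were lower in every NSD2-KD library, for PCNA as the gene with the highest level per length, and for ORC3, which holds a match but whose groups overlapped. Each is written 5′ to 3′ in the direction of transcription, in GRCh38.p14 coordinates, with the E2F-type match in capitals. The stretches are chr13:33818069-33818148 (plus strand) for RFC3, chr16:88803709-88803788 (plus) for CDT1, chr12:132687343-132687422 (minus) for POLE, chr16:85688955-85689034 (minus) for GINS2, chr11:65261882-65261961 (plus) for POLA2, chr20:5126623-5126702 (minus) for PCNA and chr6:87590055-87590134 (plus) for ORC3.
RFC3: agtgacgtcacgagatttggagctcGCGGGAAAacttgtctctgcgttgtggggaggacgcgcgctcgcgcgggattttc
CDT1: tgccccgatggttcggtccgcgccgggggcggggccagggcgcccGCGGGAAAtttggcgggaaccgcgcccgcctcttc
POLE: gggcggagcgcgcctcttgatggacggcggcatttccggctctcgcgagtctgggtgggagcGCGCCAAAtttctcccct
GINS2: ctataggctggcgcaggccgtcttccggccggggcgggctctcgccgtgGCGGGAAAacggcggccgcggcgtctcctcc
POLA2: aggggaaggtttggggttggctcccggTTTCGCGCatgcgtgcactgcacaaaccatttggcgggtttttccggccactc
PCNA: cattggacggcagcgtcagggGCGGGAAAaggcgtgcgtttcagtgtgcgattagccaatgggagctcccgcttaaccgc
ORC3: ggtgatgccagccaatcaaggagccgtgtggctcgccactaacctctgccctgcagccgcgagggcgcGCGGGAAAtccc

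Genes with and without the E2F-type letters both tended to be lower in NSD2-KD cells. The 16 tested genes with a match had a median log2 difference of -0.998 (from -1.51 to 0.05), and the 18 tested genes with a window but no match had a median of -0.67 (from -1.65 to 0.19). The ranges of both classes overlapped almost fully, and the difference between the classes was not tested. ORC1, with the largest log2 difference of all 38 genes, has none of these letters in its window, and ORC3, with a log2 difference of 0.05, has a match 12 bases before its start.

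**Figure D2:**
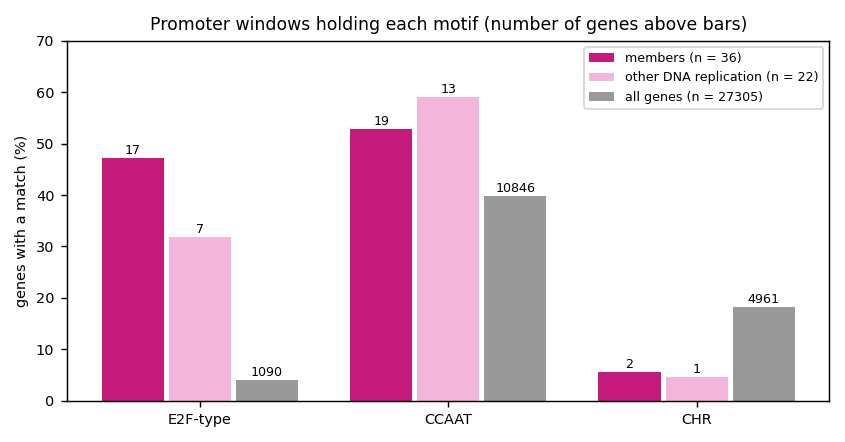
The bars give the share of genes (percent) whose promoter window holds the E2F-type, CCAAT or CHR letters, for the 36 replication genes described here, 22 other DNA replication genes and all 27305 genes of the table, with the number of genes above each bar. The E2F-type letters are found in 47.2% of the replication genes and 3.99% of all genes.

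Origin licensing was divided between ORC2 to ORC5, with small differences, and ORC1, ORC6 and the regulators, which were lower. The 9 licensing genes had a median log2 difference of -0.83 (-0.53 without Ctr-1), but ORC2 to ORC5 had a median of 0.03 and CDC6, CDT1 and GMNN a median of -1.08. ORC1, an ATP-binding subunit that is known to be degraded and remade in each cycle, lies at chr1:52838501-52870095 on the minus strand of GRCh37, the same assembly as hg19. Its normalized counts were 31.4 and 22.6 in Ctr-1 and Ctr-2 and 8.28, 4.37 and 12.7 with NSD2-1, NSD2-2 and NSD2-3. All NSD2-KD libraries were below both Ctr-KD libraries, with a log2 difference of -1.65 (SE 0.42, limma adjusted p = 0.267), although the NSD2-KD values rest on 9, 4 and 13 reads. ORC6, a small subunit that is held less tightly in the complex, had 41.9 and 41.2 normalized counts in the Ctr-KD libraries and 22.1, 16.4 and 25.4 in the NSD2-KD libraries, in the same order of siRNAs. These groups did not overlap either, and the log2 difference was -0.95 (SE 0.25, limma adjusted p = 0.282).

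The other ORC subunits, which form the stable part of the complex, had smaller differences. ORC2 had 47.6 and 68.9 normalized counts in the Ctr-KD libraries and 67.2, 50.2 and 55.6 with NSD2-1, NSD2-2 and NSD2-3, and ORC3 had 51.4 and 62.8 against 62.6, 62.3 and 52.7. For both genes the groups overlapped and the log2 differences were -0.0011 and 0.05 (95% intervals of -0.52 to 0.51 and -0.38 to 0.48). ORC4 had 41.9 and 38.1 normalized counts against 40.5, 52.4 and 44.9, and ORC5 had 41.9 and 44.2 against 41.4, 33.9 and 39.0. ORC4 overlapped between the groups, whereas ORC5 was below both Ctr-KD libraries in every NSD2-KD library, with NSD2-1 only just below Ctr-1. The log2 differences of 0.19 for ORC4 and -0.18 for ORC5 were smaller than their standard errors of 0.20, with intervals of -0.28 to 0.65 and -0.63 to 0.28. None of these 4 intervals reached the median of -0.84 over the tested replication genes.

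The contrast within ORC did not depend on how the libraries were scaled, since it was also seen as reads on one subunit per 100 reads on others of the same library. ORC1 had 17.2 and 10.6 reads per 100 reads on ORC2 to ORC5 in the Ctr-KD libraries and 3.91, 2.20 and 6.60 with NSD2-1, NSD2-2 and NSD2-3. ORC6 had 22.9 and 19.2 reads per 100 in the Ctr-KD libraries and 10.4, 8.24 and 13.2 in the NSD2-KD libraries. Neither ratio overlapped between the groups. These pairs were chosen after the values had been seen, so the ratios here and below are given without a test.

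The loading factors and their inhibitor were all lower in every NSD2-KD library. CDT1, which brings the MCM helicase to ORC, lies at chr16:88870197-88875666 on the plus strand of GRCh37 and had 62.9 and 61.7 normalized counts in the Ctr-KD libraries against 20.2, 14.2 and 37.1 with NSD2-1, NSD2-2 and NSD2-3. Its log2 difference was -1.46 (SE 0.36, limma adjusted p = 0.267), and the NSD2-3 library kept more of it than the other two. CDC6, the ATPase that works with CDT1, had 48.6 and 57.6 normalized counts against 34.0, 17.5 and 24.4, a log2 difference of -1.08 (SE 0.29, limma adjusted p = 0.295). GMNN, which encodes geminin and so the brake on CDT1, had 89.6 and 58.6 normalized counts against 50.6, 33.9 and 38.1, and its log2 difference was -0.83 (SE 0.26, limma adjusted p = 0.354). The ratio of activator to brake overlapped between the groups, with 70.2 and 105 reads on CDT1 per 100 reads on GMNN in the Ctr-KD libraries and 40, 41.9 and 97.4 in the NSD2-KD libraries.

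All 6 genes of helicase activation were lower in every NSD2-KD library than in both Ctr-KD libraries, and their median log2 difference was -1.01. GINS is a ring-shaped complex of 4 subunits that binds the MCM helicase with CDC45. GINS1 had 52.4 and 51.4 normalized counts in the Ctr-KD libraries and 21.2, 17.5 and 39.0 with NSD2-1, NSD2-2 and NSD2-3, and its log2 difference was -1.06 (SE 0.33, limma adjusted p = 0.366). GINS2 had 47.6 and 45.3 against 24.8, 15.3 and 33.2, with a log2 difference of -0.96 (SE 0.32, limma adjusted p = 0.391). For both of these subunits the NSD2-3 library lay nearest to the Ctr-KD level, at 75.2% and 71.5% of the Ctr-KD mean. GINS3, the subunit with the lowest level per kilobase, had 14.3 and 19.5 normalized counts against 13.8, 6.55 and 6.83, a log2 difference of -0.89 that did not reach an unadjusted p of 0.05 in limma (SE 0.39). GINS4 had the smallest log2 difference of the 6 genes but the smallest spread between siRNAs, with 104 and 88.5 normalized counts against 54.3, 48.1 and 59.5 (log2 difference -0.82, SE 0.18, limma adjusted p = 0.222).

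CDC7 and its activating subunit DBF4 form the kinase that phosphorylates the loaded helicase, and both were lower in every NSD2-KD library. CDC7 had 20 and 23.7 normalized counts in the Ctr-KD libraries and 12.9, 6.55 and 9.76 in the NSD2-KD libraries (log2 difference -1.13, SE 0.34). DBF4 had 43.8 and 47.3 against 25.8, 9.83 and 32.2 (log2 difference -1.13, SE 0.44), and the limma adjusted p was 0.351 for CDC7 and 0.484 for DBF4. The NSD2-2 library was the lowest for both, and for DBF4 the highest NSD2-KD library had 3.28 times the value of the lowest. Without NSD2-2 the log2 difference was -0.90 for CDC7 and -0.64 for DBF4.

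The polymerase genes of this set were lower as a group, with POLD2 as an exception. Of 10 genes, 8 were tested, all 8 were lower, 7 were lower in every NSD2-KD library, and the median log2 difference was -0.77. POLD4 and POLE4 are not among these 10 genes but are counted below with the other DNA replication genes. Both overlapped between the groups. Polymerase alpha-primase starts each new strand. POLA1, its catalytic subunit, had 51.4 and 53.5 normalized counts in the Ctr-KD libraries and 35.0, 13.1 and 25.4 with NSD2-1, NSD2-2 and NSD2-3 (log2 difference -1.17, SE 0.37, limma adjusted p = 0.375). POLA2, its accessory subunit, had 57.2 and 71.0 against 45.1, 28.4 and 33.2 (log2 difference -0.85, SE 0.24, limma adjusted p = 0.321). PRIM2, the large primase subunit, had 38.1 and 42.2 against 36.8, 27.3 and 20.5, and although its groups did not overlap the NSD2-1 library was only just below Ctr-1 (log2 difference -0.53, SE 0.28, limma adjusted p = 0.62). PRIM1, the small primase subunit that makes the RNA primer, was under the filter, with 6.67 and 16.5 normalized counts against 2.76, 1.09 and 6.83. The groups overlapped for PRIM1, and the NSD2-1 and NSD2-2 values were at or under 3 reads.

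Polymerase delta, which copies the lagging strand, showed unequal differences among its subunits. POLD2, a regulatory subunit, lies at chr7:44154230-44163957 on the minus strand of GRCh37 and had 233 and 269 normalized counts in the Ctr-KD libraries against 262, 221 and 264 in the NSD2-KD libraries. These values overlapped, and the log2 difference was -0.01 (95% interval -0.32 to 0.29). POLD1, the catalytic subunit, had 87.6 and 113 normalized counts against 76.4, 52.4 and 57.6 (log2 difference -0.69, SE 0.21, limma adjusted p = 0.356). POLD3, the subunit that contacts PCNA, had 43.8 and 46.3 against 25.8, 20.8 and 22.5 (log2 difference -0.95, SE 0.22, limma adjusted p = 0.239). Its 3 NSD2-KD values were close to each other but rest on 28, 19 and 23 reads. Their closeness is not read as a trait of POLD3. POLD4, from the other DNA replication genes, had 93.4 and 77.2 normalized counts in the Ctr-KD libraries against 87.4, 108 and 83.0 in the NSD2-KD libraries. The POLD4 values overlapped, and the log2 difference was 0.12 (95% interval -0.30 to 0.53). Per 100 reads on POLD2 in the same library, POLD1 had 37.6 and 42.1 reads in the Ctr-KD libraries and 29.1, 23.8 and 21.9 in the NSD2-KD libraries, and POLD3 had 18.8 and 17.2 against 9.82, 9.41 and 8.52. Neither ratio overlapped between the groups.

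Polymerase epsilon, which copies the leading strand, was lower in POLE and POLE3 but not clearly in POLE4. POLE, its catalytic subunit, lies at chr12:133200339-133263962 on the minus strand of GRCh37 and had 162 and 156 normalized counts in the Ctr-KD libraries against 91.1, 54.6 and 92.7 in the NSD2-KD libraries. The log2 difference was -1.03 (SE 0.24, limma adjusted p = 0.237, DESeq2 adjusted p = 0.052). POLE3, a small histone-fold subunit also found in a chromatin remodeller, had 132 and 148 normalized counts against 117, 89.6 and 66.4 (log2 difference -0.65, SE 0.23, limma adjusted p = 0.42). The order of the siRNAs differed between these subunits, since POLE was lowest with NSD2-2 and POLE3 with NSD2-3. POLE2, the second largest subunit, was under the filter at 18.1 and 10.3 normalized counts against 8.28, 4.37 and 4.88, without overlap. Reads on POLE per 100 reads on POLE3 overlapped between the groups, at 122 and 106 against 78.0, 61.0 and 140.

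**Figure D3:**
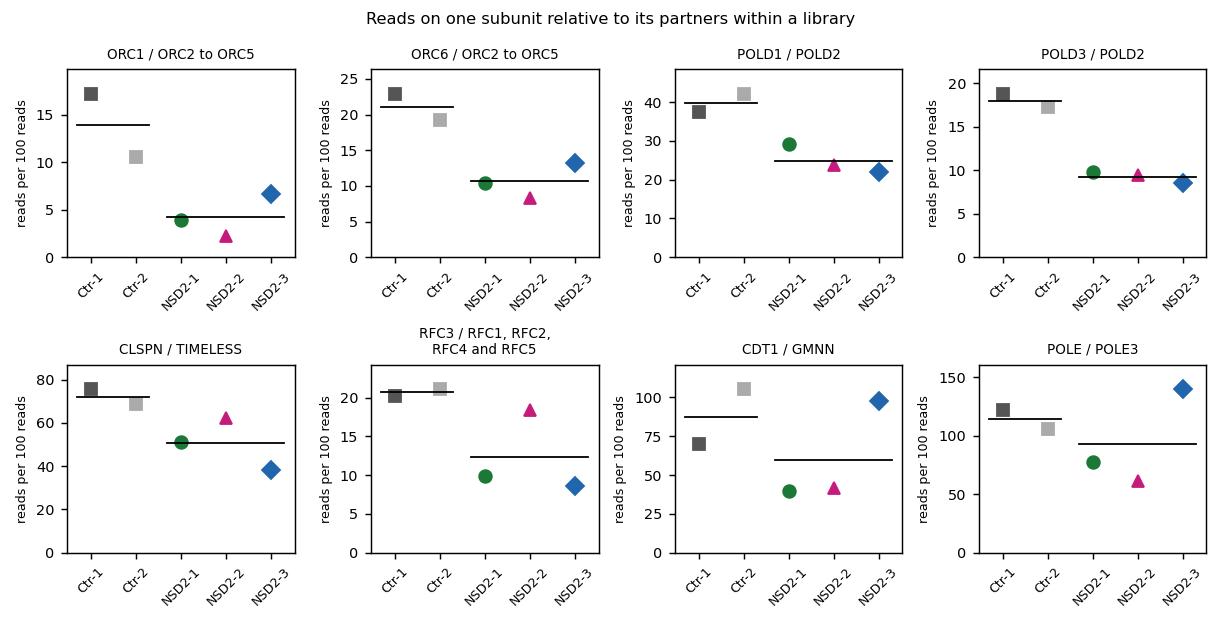
Each panel shows the reads on one gene per 100 reads on its partner gene or genes in the same library, with 1 symbol per library and a line at the mean of each group; the vertical axes start at 0. In 6 of the 8 panels the NSD2-KD libraries lie below both Ctr-KD libraries, as for ORC1 (10.6 and above against 6.60 and below), and in the CDT1 and POLE panels the groups overlap.

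The clamp, clamp loader, RPA and lagging-strand genes had a median log2 difference of -0.61 over 11 genes, all lower and 9 of them without overlap. PCNA, the sliding clamp, had 222 and 217 normalized counts in the Ctr-KD libraries and 136, 132 and 196 with NSD2-1, NSD2-2 and NSD2-3. The log2 difference was -0.52 (SE 0.18, limma adjusted p = 0.423), and the NSD2-3 library kept 89.4% of the Ctr-KD mean while NSD2-1 and NSD2-2 kept 62.0% and 60.2%. The clamp loader opens PCNA around the primer end and consists of a large subunit, RFC1, and 4 small ones.

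RFC3 had the closest NSD2-KD values among the loader subunits. It lies at chr13:34392206-34540695 on the plus strand of GRCh37 and had 54.3 and 59.7 normalized counts in the Ctr-KD libraries against 22.1, 20.8 and 19.5 with NSD2-1, NSD2-2 and NSD2-3. The NSD2-KD libraries thus kept 34.3% to 38.8% of the Ctr-KD level. The highest NSD2-KD value was 1.13 times the lowest, the smallest such ratio among the 38 tested genes. These values rest on 24, 19 and 20 reads with NSD2-1, NSD2-2 and NSD2-3, where counting error is wider than this spread. Their closeness is therefore not read as a trait of RFC3. The log2 difference was -1.41 (SE 0.21), with an adjusted p of 0.0876 in limma, 0.0485 in edgeR and 0.0179 in DESeq2. Per 100 reads on the other loader subunits of the same library, RFC3 had 20.3 and 21.1 reads in the Ctr-KD libraries and 9.96, 18.4 and 8.55 in the NSD2-KD libraries, so the ratio in NSD2-2 was close to the Ctr-KD level.

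The remaining loader subunits varied more between siRNAs. RFC1 had 144 and 150 normalized counts in the Ctr-KD libraries and 107, 61.2 and 134 in the NSD2-KD libraries, and RFC2 had 53.3 and 49.4 against 41.4, 28.4 and 38.1. Neither of these genes overlapped between the groups, and the log2 differences were -0.61 (SE 0.29) and -0.52 (SE 0.23), with limma adjusted p of 0.583 and 0.544. RFC4 had 35.2 and 49.4 normalized counts against 42.3, 15.3 and 21.5, and RFC5 had 35.2 and 34.0 against 31.3, 7.65 and 35.1. Both of these genes overlapped between the groups. RFC5 was low in the NSD2-2 library alone, at 22.1% of the Ctr-KD mean, with 90.4% in NSD2-1 and 102% in NSD2-3.

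RPA, the trimer that coats single-stranded DNA, had a median log2 difference of -0.45. RPA1, its largest subunit, had 260 and 272 normalized counts in the Ctr-KD libraries against 220, 169 and 198 in the NSD2-KD libraries (log2 difference -0.45, SE 0.14, limma adjusted p = 0.368). RPA2 had 62.9 and 71.0 against 41.4, 50.2 and 47.8 (log2 difference -0.52, SE 0.19, limma adjusted p = 0.432) and was one of few genes that were lowest with NSD2-1. RPA3 had 21.9 and 21.6 against 19.3, 15.3 and 19.5, and its log2 difference was -0.26 (SE 0.26, 95% interval -0.85 to 0.32).

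The enzymes that finish the lagging strand were lower by more. FEN1, the nuclease that removes primer flaps, had 127 and 112 normalized counts in the Ctr-KD libraries and 80.1, 32.8 and 66.4 in the NSD2-KD libraries (log2 difference -1.08, SE 0.34, limma adjusted p = 0.366). LIG1, the ligase that seals the joined fragments, had 125 and 124 against 83.7, 48.1 and 74.2 (log2 difference -0.89, SE 0.24, limma adjusted p = 0.282). The NSD2-2 library was the lowest for both enzymes and held 27.4% and 38.6% of the Ctr-KD means.

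The 4 fork protection genes had a median log2 difference of -1.06 and, of the 5 roles, the widest spread between siRNAs, with medians of -0.59, -1.84 and -0.88 for NSD2-1, NSD2-2 and NSD2-3. CLSPN encodes claspin, which links the helicase to the checkpoint kinase at stalled forks. It lies at chr1:36185819-36235579 on the minus strand of GRCh37 and had 106 and 92.6 normalized counts in the Ctr-KD libraries against 51.5, 25.1 and 30.3 with NSD2-1, NSD2-2 and NSD2-3. The log2 difference was -1.51 (SE 0.29), with an adjusted p of 0.197 in limma, 0.133 in edgeR and 0.00937 in DESeq2. WDHD1, which tethers polymerase alpha to the fork, had 58.1 and 75.1 against 39.6, 19.7 and 33.2 (log2 difference -1.13, SE 0.31, limma adjusted p = 0.292).

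TIMELESS and TIPIN, which form a heterodimer that travels with the fork, were measured with unequal precision. TIMELESS had 140 and 135 normalized counts in the Ctr-KD libraries and 100, 40.4 and 79.1 in the NSD2-KD libraries (log2 difference -0.99, SE 0.33, limma adjusted p = 0.401). TIPIN, with far fewer reads, had 11.4 and 20.6 against 17.5, 3.28 and 14.6, and the groups overlapped (log2 difference -0.61, SE 0.62, 95% interval -2.03 to 0.81). Its interval also spans the value of TIMELESS, and the difference between the genes was not tested. Per 100 reads on TIMELESS, CLSPN had 75.5 and 68.7 reads in the Ctr-KD libraries and 51.4, 62.2 and 38.3 in the NSD2-KD libraries, without overlap.

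Across roles, the median log2 differences ordered as fork protection (-1.06), GINS and the CDC7 kinase (-1.01), origin licensing (-0.83), polymerases (-0.77) and the clamp group (-0.61). Within each role the genes spanned more than this whole range of medians except in GINS and the CDC7 kinase, where they ran only from -1.13 to -0.82. This order was not stable, since GINS and the CDC7 kinase lay below fork protection without Ctr-2 (-1.01 against -0.99) and without NSD2-3 (-1.18 against -1.15), and origin licensing had the smallest difference of all roles without Ctr-1 (-0.53 against -0.65 for the clamp group). The roles share the same 5 libraries, and the differences between them were not tested.

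The 3 NSD2-KD libraries held different amounts of these transcripts although their NSD2 mRNA was alike. With 1 library for each siRNA, these differences cannot be credited to the siRNAs. Over the 38 tested genes the median share of the Ctr-KD mean was 67.7% in NSD2-1, 39.1% in NSD2-2 and 59.5% in NSD2-3, and 4, 25 and 10 genes, respectively, were under 50% of it. The NSD2-2 library was the lowest of the 3 for 32 genes, NSD2-1 for ORC4 and RPA2, and NSD2-3 for ORC3, PRIM2, POLE3 and RFC3. The number of genes below both Ctr-KD libraries was nonetheless alike, with 32 in NSD2-1, 35 in NSD2-2 and 32 in NSD2-3, against 38.0%, 38.8% and 38.7% of all tested genes. With the NSD2-2 library left out, the median log2 difference over the tested genes was -0.66 and 25 genes had an unadjusted p under 0.05 in the lower direction. The share of all tested genes at that p was not computed for this run. Of 31 genes with an absolute log2 difference of at least 0.5, leaving out NSD2-2 moved 7 by over 1.5 times, namely DBF4, FEN1 (-1.08 to -0.70), TIMELESS (-0.99 to -0.62), RFC1 (-0.61 to -0.30), RFC4 (-0.77 to -0.45), RFC5 (-0.72 to -0.059) and TIPIN (-0.61 to 0.054).

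**Figure D4:**
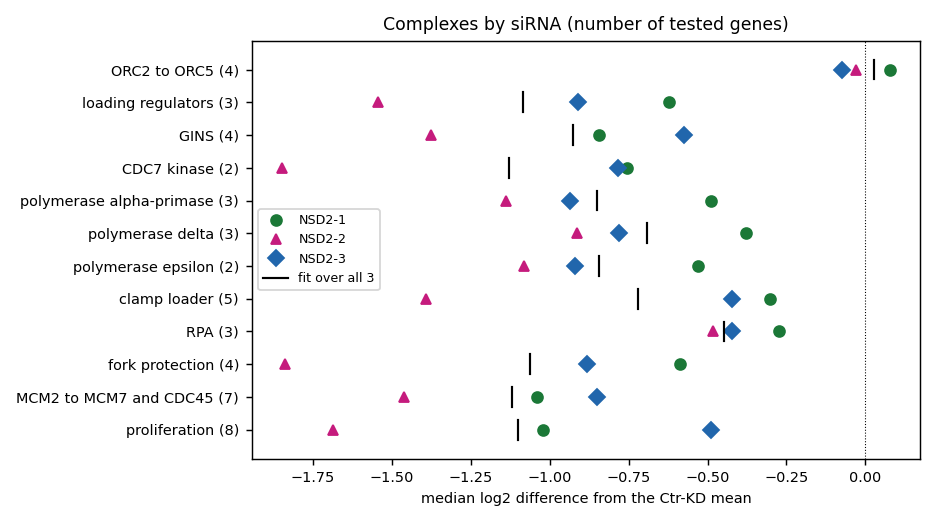
Each row is a complex or gene list with its number of tested genes, the coloured symbols give the median log2 difference of its genes in 1 NSD2-KD library from the Ctr-KD mean, and the black bar gives the median of the fitted log2 differences over all 3 libraries. NSD2-2 is the leftmost symbol in each row except ORC2 to ORC5, where all symbols lie near 0.

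In Ctr-KD cells the levels of these genes per kilobase of transcript spanned a wide range. PCNA was the highest, at 172 ± 2.71 normalized counts per kb (SD, n = 2), followed by POLD2 at 156 ± 15.4 (SD, n = 2), and then by POLE3 (63.9 ± 5.07), FEN1 (59.2 ± 5.11) and GMNN (58.7 ± 17.3), which did not differ from each other beyond their spread. At the low end were GINS3 (7.69 ± 1.69), CDC7 (6.79 ± 0.804) and ORC4 (6.11 ± 0.416), again per kb and within about 1 SD of each other. In NSD2-KD cells POLD2 was the highest, at 155 ± 15.2 (SD, n = 3), with PCNA at 121 ± 28.1 (SD, n = 3), and the level of ORC1 per kb was 2.71 ± 1.33 (SD, n = 3), below that of ORC4 at 7.02 ± 0.922 (SD, n = 3).

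Most of the rest of the replication machinery moved in the same direction. Of 30 other DNA replication genes, 29 were tested, and 26 of these were lower and 3 higher. In every NSD2-KD library 20 of the 29 were below both Ctr-KD libraries, against 13.9% of all tested genes. Only 1 was above both in every NSD2-KD library, against 13.8%. An unadjusted limma p under 0.05 in the lower direction was reached by 18 of the 29, against 4.99% of all tested genes. The median log2 difference of the 29 genes was -0.96. At an adjusted p under 0.05, limma called 0 of them lower, against 0.053% of all tested genes. DESeq2 called 6 of them lower, against 0.389%. Within that list, MCM2 to MCM7 and CDC45, the core of the helicase, were lower in all 7 genes with a median of -1.12, and the other 22 tested genes had a median of -0.59. The 4 genes with the largest differences were MCM10 (-1.34, SE 0.33), which helps activate the helicase, CHAF1B (-1.29, SE 0.26), a subunit of the histone chaperone that acts behind the fork, ATAD5 (-1.26, SE 0.33), which takes PCNA off the DNA, and MCM6 (-1.24, SE 0.18), for which limma gave an adjusted p of 0.079.

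Markers of dividing cells were lower in the same libraries. All 8 proliferation genes were lower, 7 of them without overlap, against 13.9% of all tested genes, and their median log2 difference was -1.10. Their summed level was 2736 and 2793 normalized counts in the Ctr-KD libraries and 1478, 871 and 1203 with NSD2-1, NSD2-2 and NSD2-3. TOP2A belongs both to this list and to the other DNA replication genes above. The marker MKI67 had 912 and 967 normalized counts in the Ctr-KD libraries and 481, 217 and 110 in the NSD2-KD libraries (log2 difference -2.05, SE 0.49, limma adjusted p = 0.259). By siRNA, the median of the markers was -1.02, -1.69 and -0.49, while that of the replication genes was -0.54, -1.27 and -0.74, so NSD2-2 was the lowest in both lists and the order of NSD2-1 and NSD2-3 differed. The part of these markers in the differences of the replication genes was not tested, and in bulk libraries fewer cells in S phase and less RNA per cell cannot be told apart.

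Exons of another annotated gene overlapped those of 21 of the 40 genes in GENCODE on GRCh37, so the counts of these genes are uncertain. The library kit did not mark the strand, and a strand mark would not separate genes that overlap on the same strand. Genes above with such an overlap include FEN1 (FADS2, on the same strand), RFC4 (EIF4A2), RFC5 (WSB2), GINS1 (NINL), GINS2 (GSE1), DBF4 (SLC25A40), POLE3 (C9orf43), RPA1 (SMYD4) and CLSPN (an unnamed antisense gene), and PRIM1 (NACA) and PRIM2 (PRIM2BP) on the same strand. ORC2 (an unnamed antisense gene), ORC4 (ACVR2A and MBD5), POLD1 (an unnamed gene, same strand) and POLD3 (LIPT2-AS1, same strand) also have one. The ratios given above that use these genes share this uncertainty. No such overlap was found for RFC3, ORC1, ORC3, ORC5, ORC6, CDC6, CDT1, POLA1, POLD2, POLE, PCNA, TIMELESS or WDHD1.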

How the data were processed

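Poly(A) mRNA-seq libraries of IMR-90 cells (2 Ctr-KD, 3 NSD2-KD) were grouped by the sample labels. The study's methods name Trimmomatic for trimming, and the submitters' processing notes name HISAT2, SAMtools, featureCounts, DESeq2 and hg19. The annotation and strand setting of the counting were not given in the sources used here, and the NEBNext Ultra kit did not mark strand. The signal that the authors deposited is the number of reads per gene divided by 1 DESeq2 size factor per library, so that a shift common to every gene cannot be seen. A second deposited table holds the authors' own comparison (base mean, fold change, standard error, test statistic and p-values) and was not used. In each library 100% of values were whole multiples of 1 read (tolerance 0.02), so reads were recovered; they summed to between 2473691 and 2845063, and counting error is largest for genes with few reads. On those reads DESeq2 called 44 lower and 14 higher genes and edgeR 11 and 5. There were 0 columns of samples outside the series.

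The 11313 of 26364 genes whose normalized counts averaged 10 or more were fitted with limma on log2(normalized count + 1), with a mean-variance trend and no covariates. Differences on this scale understate changes of low genes. P-values are two-sided, adjusted by Benjamini-Hochberg over all tested genes, with a threshold of 0.05, and limma called 6 lower and 4 higher genes. The smallest p of an exact permutation test on 2 against 3 libraries would exceed that threshold, so none was used. The fit was checked on simulated counts with 4-fold changes, where limma called 199 of 199 changed and 6 of 11097 unchanged genes. Those changes are larger than any among the tested replication genes, and all simulated libraries were given the same spread. The check therefore does not cover differences of the size and spread seen here. The study's methods call the Ctr-KD libraries biological replicates, and they were kept as 2. The chi-square between them over its degrees of freedom was 1.05, near counting noise. It was 3.87 to 5.08 between a Ctr-KD and an NSD2-KD library and 5.05 to 5.29 between NSD2-KD libraries. Whether the Ctr-KD libraries carry the variation between separate cultures was not tested. The counts without overlap and the standard errors depend on it. Levels per kilobase used the canonical transcript's length in GENCODE on GRCh37, and promoter letters came from RefSeq. Values per library were given for members past the threshold, the 14 with the largest difference, the one with the smallest difference in each role and every complex whose subunits were compared. The markers were lists for proliferating, fibroblast, epithelial, endothelial and leukocyte cells, of which 1 gene is not reported here. The members and lists were chosen with earlier results of these data known. Alternatives were other tests (edgeR, DESeq2), scalings, pseudocounts (0.5 and 5), filters (none, 50), variance models, a replicate block and leaving out each library. R 4.3.3, limma 3.58.1, edgeR 4.0.16 and DESeq2 1.42.0 were used.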

Additional observations from a re-analysis of the deposited data

How the results depend on the processing

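Of 38 tested genes, 34 kept their direction under each of the 16 alternatives in which they were tested and 4 did not; a minimum mean count of 50 left only 16 of them. The log2 difference of ORC2 turned to 0.0025 with TMM scaling, 0.041 with quantile normalization, 0.019 with the replicate block, 0.26 without Ctr-KD replicate 2, 0.092 without NSD2-KD replicate 2 and 0.019 without NSD2-KD replicate 3. That of ORC3 was -0.088 without Ctr-KD replicate 1, that of POLD2 was 0.087 without Ctr-KD replicate 2 and 0.070 without NSD2-KD replicate 2, and that of TIPIN was 0.054 without NSD2-KD replicate 2. Over the runs that left out each library, these genes ranged from -0.26 to 0.26 (ORC2), from -0.088 to 0.19 (ORC3), from -0.11 to 0.087 (POLD2) and from -1.01 to 0.054 (TIPIN). None of these 4 genes was called in either direction.

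The number of genes called lower at an adjusted p under 0.05 was 0 with limma, 1 with edgeR, 2 with DESeq2, and 0 to 1 when each library was left out (CLSPN without NSD2-KD replicate 1, CDT1 without NSD2-KD replicate 3). DESeq2 gave no adjusted p for ORC1, GINS3, CDC7, RPA3 and TIPIN. With the replicate number as a block, the number called lower was 5 (CDT1, CLSPN, GINS1, ORC1 and POLE). NSD2-KD replicate 3 adds nothing to that fit because it has no Ctr-KD partner. The share of all tested genes called with the block was not computed, so this count has no background to be read against. Libraries with the same number did not deviate together (r = -0.015 and -0.027), and for NSD2-KD the number is that of the siRNA, so the block is not a pairing of cultures. At a minimum mean count of 50, 12 of these 16 genes had an unadjusted p under 0.05 in the lower direction, 13 did not overlap, and the median of origin licensing was -0.0011. The shares of all genes past this minimum were not computed, so these counts have no background either. Leaving out each library in turn gave 11 to 27 genes at an unadjusted p under 0.05, with 14 without Ctr-KD replicate 1 and 11 without Ctr-KD replicate 2, where the remaining Ctr-KD library is assumed to vary like the others, 32 to 36 genes without overlap, and medians of origin licensing from -0.99 to -0.53. With a library left out, fewer values have to be separated, so groups without overlap are easier to reach than in the main run. The shares of all tested genes were not computed for the runs that left out a library. Their counts without overlap and at an unadjusted p under 0.05 therefore have no background to be read against. A count without overlap above that of the main run is not read as a sign of stability. The overall median kept its sign under every alternative.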
